A study of Mus musculus with 10 samples.

Results

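Cathepsins and legumain are peptidases of the lysosome, and 10 of their genes (Ctsa, Ctsb, Ctsc, Ctsd, Ctsh, Ctsl, Ctss, Ctsw, Ctsz and Lgmn) were followed here among the 14738 genes of an RNA sequencing table. They were taken from the table by symbol, and all 10 were found and tested. The libraries came from regulatory T (Treg) cells of mouse spleen, sorted as CD45.2+CD45.1-CD4+Foxp3-YFP+ cells from mixed bone-marrow chimeras. Flcn KO libraries (n = 5) came from chimeras that had received Foxp3CreFlcnfl/fl marrow, and WT libraries (n = 5) from chimeras that had received Foxp3Cre marrow. Both groups therefore carried the Foxp3-driven Cre with its YFP reporter, both chimeras also held CD45.1+ marrow in equal part, and the labels name no further treatment. Cre driven by Foxp3 acts in cells that express Foxp3, so the deletion is not shared by all blood cells of the chimera. The age and sex of the mice and their hosts were not stated in the labels.

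Lysosomal peptidases are made as inactive precursors, tagged with mannose 6-phosphate in the Golgi, and matured by cleavage in the acid interior of the endosome and lysosome. Most cathepsins are cysteine peptidases of the papain family, while cathepsin D is an aspartic and cathepsin A a serine peptidase, and legumain cuts after asparagine and helps to mature several cathepsins. In lymphocytes and antigen-presenting cells they degrade proteins, trim the invariant chain of class II molecules and activate granule proteases. Folliculin, the product of Flcn, acts at the lysosome on the Rag GTPases, and through them on TFEB and TFE3, transcription factors that bind promoters of lysosomal genes.

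Library depth, summed over the genes of the table, was 2340638 to 4153854 reads with the label Flcn KO and 1914516 to 3403560 reads for WT. The share of mitochondrial rRNA was 24.8% to 31.8% in the libraries labelled Flcn KO and 24.7% to 44.1% in WT libraries, where WT replicate 1 was the highest. Flcn itself had 158, 129, 130, 149 and 124 normalized counts in the libraries labelled Flcn KO, against 78.0, 45.6, 54.7, 46.5 and 46.2 in WT libraries. The groups did not overlap, and Flcn was higher with the label Flcn KO. A total per gene cannot tell reads of the deleted exons from the rest, which leaves the genotypes unchecked by Flcn, and all directions given rest on the labels. The sorted cells' own markers were high in both groups, with Foxp3 at 1056 to 1331 normalized counts in the libraries labelled Flcn KO and 1210.0 to 1384 in WT libraries. Of 9 genes of Treg identity 8 had a negative log2 fold change, with a median of -0.19. Their mean log2(normalized count + 1) was 9.48 to 9.78 in the libraries labelled Flcn KO and 9.81 to 9.93 in WT libraries, without overlap.

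Of the 10 peptidase genes 1 rose in the libraries labelled Flcn KO and none fell (limma, Benjamini-Hochberg adjusted p under 0.05 over 14723 tested genes). That gene was Ctsl, which encodes cathepsin L, an endopeptidase of the lysosome. Over all tested genes 0.944% were called higher and 0.768% lower. The log2 fold change was positive for 8 members and negative for 2, Ctsb and Lgmn, with a median of 0.36, against a median of 0.003 over all tested genes, of which 50.6% had a positive value. Before adjustment 4 of the 10 had a p under 0.05 (Ctsl, Lgmn, Ctsa and Ctsw), against 14% of all tested genes. In bulk libraries, fewer cells of a type and less RNA per cell cannot be told apart.

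**Figure D1:**
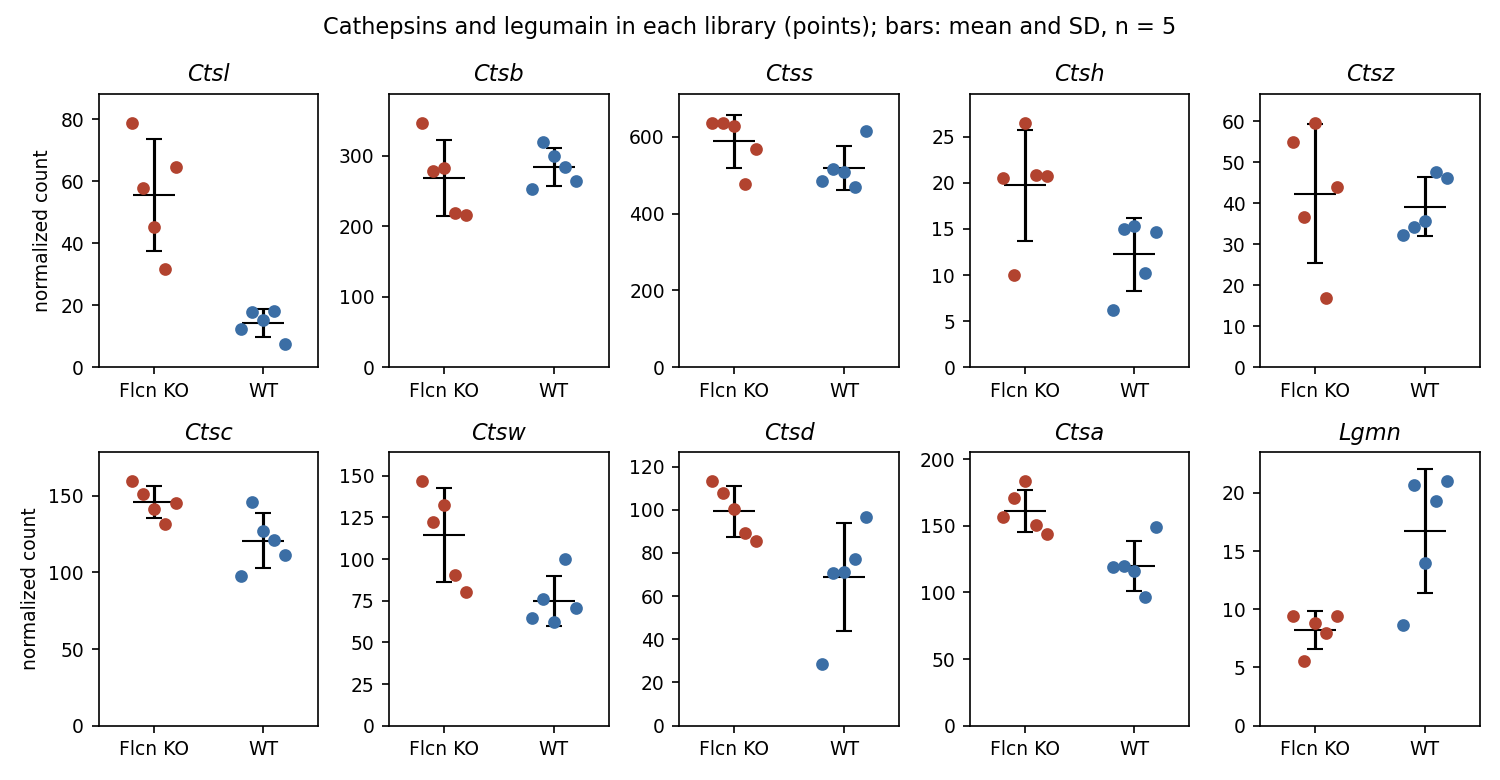
Normalized counts (vertical axis, linear, from 0) of the 10 genes in each library, with libraries labelled Flcn KO left and WT libraries right in each panel; bars give the mean and SD of 5 libraries. For Ctsl the lowest library labelled Flcn KO (31.7) lies above the highest WT library (18.1), and in the other 9 panels the groups overlap.

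Ctsl was measured at 78.9, 57.7, 45.3, 31.7 and 64.7 normalized counts in the libraries labelled Flcn KO, against 12.4, 17.8, 15.3, 18.1 and 7.35 in WT libraries. The groups did not overlap, and all 5 libraries labelled Flcn KO lay above every WT library. Such a separation in this direction was seen for 2.47% of all tested genes. The means were 55.7 ± 18.1 in the libraries labelled Flcn KO and 14.2 ± 4.47 in WT (SD, n = 5 each). On the log2(normalized count + 1) scale the fold change was 1.90 (SE 0.29, 95% interval 1.24 to 2.55, limma adjusted p = 0.0129), which is 3.72-fold. These values rest on 32 to 103 reads per library labelled Flcn KO and 7 to 25 reads per WT library. With any 1 library left out Ctsl kept its call, with a log2 fold change of 1.70 to 2.08 and a limma adjusted p of 0.0124 to 0.0413. The authors' deposited table gave a log2 fold change of 1.97 (SE 0.32) with an adjusted p of 1.02e-07. In the GENCODE annotation a pseudogene, Gm49230, and an antisense gene, Gm47123, overlap exons of Ctsl over 395 and 1742 bases. Gm49230 lies on the same strand as Ctsl, so counting by strand would not separate their reads. Gm47123 lies on the other strand, and whether reads were counted by strand was not stated. Reads inside these overlaps therefore cannot be told apart by gene. The same holds for Ctsd with Gm49369 on its own strand. It also holds, with genes on the other strand, for Ctsa with Neurl2 and Pltp, and, over a few bases, for Ctsw with Fibp and Ctsz with Nelfcd.

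Short stretches of 4 genes are shown because they hold the 6 letters CACGTG, the core of the element that TFEB and TFE3 bind, within the RefSeq promoter windows (250 bases before to 50 after a start site, build GRCm38.p6, not the mm9 named in the submitters' processing notes). They are written 5′ to 3′ on the gene's strand, with CACGTG in capitals.
Ctsl, chr13:64370743-64370764, minus strand: ttagaagcCACGTGctgatcta
Ctsd, chr7:142387912-142387933, minus strand: ccgcgtctCACGTGacccgttg
Ctsd, chr7:142388059-142388077, minus strand: tccccCACGTGacctgtat
Ctsa, chr2:164833758-164833786, plus strand: tgtCACGTGatgcagatgctCACGTGacc
Lgmn, chr12:102439128-102439149, minus strand: atgtctgtCACGTGgtccattt
Windows were found for 7 of the 10 members, and 4 of the 7 held CACGTG, which reads the same on both strands. Among all 27025 genes with a window 8.09% held it, and among the tested genes with one 11.6%. The longer string TCACGTG, which contains CACGTG, was found on either strand in Ctsa, Ctsd and Lgmn, against 4.29% of all genes and 6.94% of the tested genes. The full CLEAR element in its exact form, which is that string with G before it and AC after it, was in none of the 7, against 0.37% of all genes and 0.845% of the tested genes. It was also in none of 28 lysosomal glycosidases, lipases and cofactors with a window. Of those 28 genes 21.4% held CACGTG and 21.4% held TCACGTG. Inexact forms of the full element were not searched. TCATGTG, the M-box form, was found on either strand in Ctsa and Ctss. It was in 4.31% of all genes, 2.97% of the tested genes and 10.7% of those 28 genes. In Ctsl, Lgmn and Ctsa the windows with a match belong to start sites inside the annotated gene. Genes with these letters included Ctsl, which rose, and Lgmn, which had the most negative fold change of the 10.

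The other endopeptidases of the papain family, Ctss and Ctsb, did not pass. Ctss, cathepsin S, which trims the invariant chain in antigen-presenting cells, had 476 to 636 normalized counts in the libraries labelled Flcn KO and 469 to 614 in WT libraries. Its log2 fold change was 0.18 (SE 0.13, 95% interval -0.12 to 0.48, limma adjusted p = 0.61). Ctsb, cathepsin B, had 215 to 346 in the libraries labelled Flcn KO and 253 to 320 in WT libraries. In Ctsb the interval of the log2 fold change reached from -0.45 to 0.25, around a value of -0.10 (limma adjusted p = 0.842). For both genes the groups overlapped. An exon of Fdft1 on the other strand overlaps Ctsb, and Fdft1 had a log2 fold change of 0.16 (limma adjusted p = 0.834).

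Among the cathepsins that trim proteins from their ends no member passed. Ctsh, an aminopeptidase, had 20.6, 9.99, 26.5, 20.8 and 20.7 normalized counts in the libraries labelled Flcn KO, against 6.19, 15.0, 15.3, 10.2 and 14.7 in WT libraries. It lay above every WT library in 4 of the 5 libraries labelled Flcn KO, and Flcn KO replicate 2 fell inside the WT range. Its log2 fold change of 0.65 had an interval from -0.02 to 1.31 (limma adjusted p = 0.369) and rests on 5 to 33 reads per library. Ctsc, the dipeptidyl peptidase that activates granzymes, had 132 to 159 in the libraries labelled Flcn KO and 97.8 to 146 in WT libraries, with a log2 fold change of 0.28 (95% interval -0.02 to 0.58, limma adjusted p = 0.395). Ctsz, a carboxypeptidase, spread from 16.8 in Flcn KO replicate 4 to 59.7 in Flcn KO replicate 3, and the WT libraries held 32.2 to 47.6. The log2 fold change of Ctsz was 0.01, with an interval from -0.68 to 0.71.

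Ctsw, cathepsin W, a member of the papain family made mainly by cytotoxic lymphocytes, had 147, 122, 133, 90.2 and 80.4 normalized counts in the libraries labelled Flcn KO, against 64.4, 76.2, 62.4, 99.7 and 70.3 in WT libraries. All 5 libraries labelled Flcn KO lay above the WT mean of 74.6 ± 15.0 (SD, n = 5), and 3 of them above every WT library. The log2 fold change was 0.59 (SE 0.20, 95% interval 0.14 to 1.05), and Ctsw did not pass in limma (adjusted p = 0.222). It passed narrowly in DESeq2 on the recovered reads (adjusted p = 0.0445), which called 2.57% of its genes higher, and in the authors' deposited table (adjusted p = 0.04996), which called 2.48% higher. Markers of CD8 T and NK cells, which make cathepsin W, summed to 136, 83.3, 140, 91.2 and 86.0 normalized counts in the same order of Flcn KO replicates and to 82.6 to 124 in WT libraries. Both libraries with the most Ctsw, Flcn KO replicates 1 and 3, also had the highest sums of these 6 markers, while Flcn KO replicate 2 had 122 counts of Ctsw beside a sum of 83.3. Of those markers Klrd1 was at 0 in Flcn KO replicate 2 and Klrk1 in Flcn KO replicate 3, and their part in the Ctsw values was not tested.

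Ctsd, cathepsin D, the main aspartic peptidase of the lysosome, had 113, 108, 101, 89.2 and 85.4 normalized counts in the libraries labelled Flcn KO, against 28.5, 70.5, 71.3, 77.0 and 96.6 in WT libraries. WT replicate 1, the library with the largest share of mitochondrial rRNA, stood lowest. The log2 fold change of 0.62 (95% interval -0.02 to 1.26, limma adjusted p = 0.378) was 0.33 without that library. Ctsa, cathepsin A, a serine carboxypeptidase that also protects beta-galactosidase and neuraminidase from breakdown, had 157, 171, 183, 151 and 144 in the libraries labelled Flcn KO, against 119, 120, 116, 96.3 and 149 in WT libraries. Only WT replicate 5 reached into the range of the libraries labelled Flcn KO. Its log2 fold change of 0.43 (SE 0.14, 95% interval 0.12 to 0.75) did not pass in limma (adjusted p = 0.201), and over the alternatives its adjusted p ran from 0.0594 to 0.347.

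Lgmn, legumain, had the most negative fold change of the 10. It was measured at 9.43, 5.55, 8.84, 7.93 and 9.42 normalized counts in the libraries labelled Flcn KO, against 8.67, 20.6, 14.0, 19.3 and 21.0 in WT libraries. Every library labelled Flcn KO lay below the WT mean of 16.7 ± 5.30 (SD, n = 5), and WT replicate 1 alone fell inside their range. The log2 fold change was -0.90 (SE 0.25, 95% interval -1.45 to -0.35), and Lgmn did not pass with all 10 libraries (limma adjusted p = 0.129). Without WT replicate 1 it fell by 1.10 on the log2 scale (limma adjusted p = 0.0271), where 0.591% of the tested genes were called lower. edgeR without that library gave -1.17 (adjusted p = 0.0361), where 2.82% were called lower. In edgeR with all 10 libraries Lgmn was below the filter on low counts. These values rest on 5 to 15 reads per library labelled Flcn KO and 7 to 29 per WT library. The authors' deposited table gave a log2 fold change of -1.02 with an adjusted p of 0.142.

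**Figure D2:**
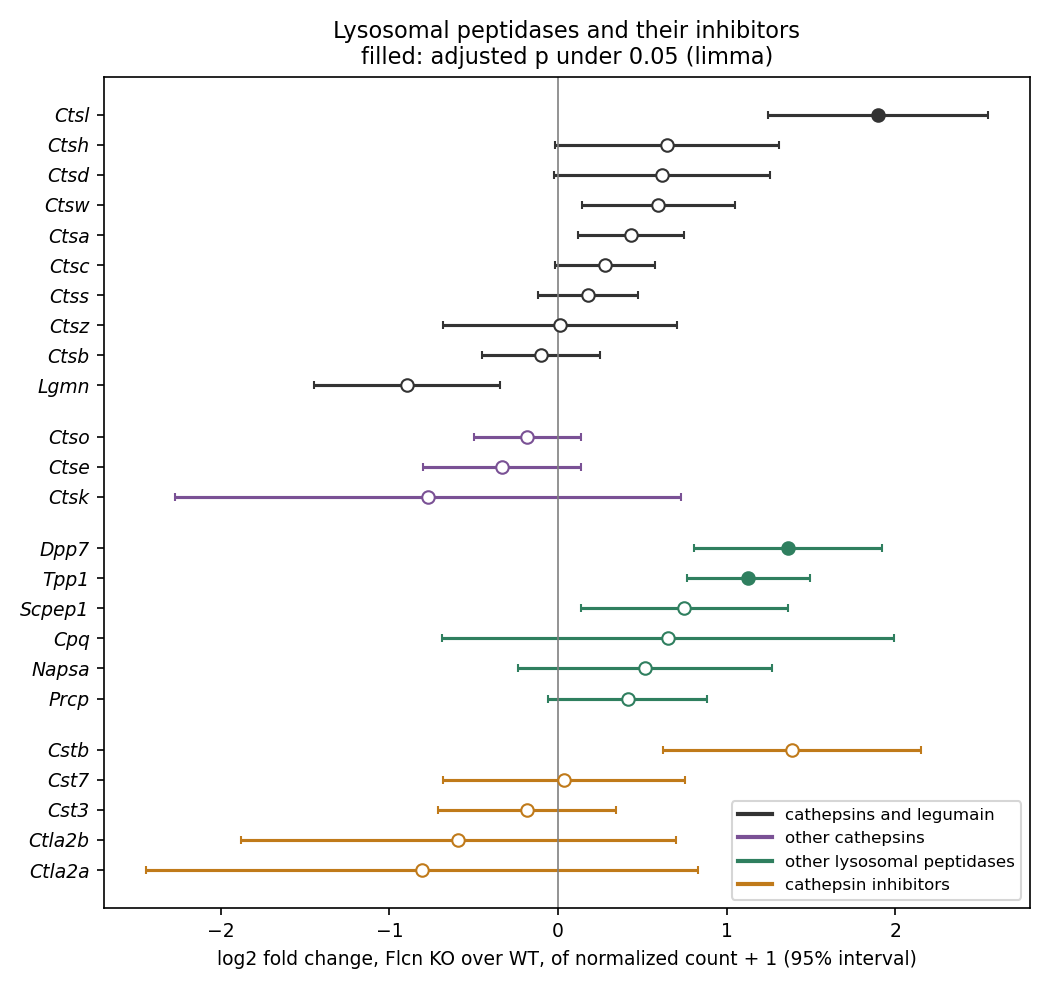
Log2 fold changes of libraries labelled Flcn KO over WT (horizontal axis, log2(normalized count + 1) scale, with 95% intervals, n = 5 each) for the 10 genes, other cathepsins, other lysosomal peptidases and cathepsin inhibitors; filled points have a limma adjusted p under 0.05. Ctsl (1.90) is the filled point among the 10 genes, and Dpp7 (1.36) and Tpp1 (1.13) those among the other peptidases.

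Levels of different genes were compared per kilobase of coding length, as normalized counts. Ctss had the highest level, 577 ± 67.9 in the libraries labelled Flcn KO and 508 ± 55.5 in WT (SD, n = 5 each), and took 42.3% ± 1.87 and 43.8% ± 3.10 of the summed level of the 10 genes. Ctsb came next with 264 ± 53.0 in the libraries labelled Flcn KO and 279 ± 26.3 in WT, apart from both its neighbours in each group. Ctsa, Ctsc, Ctsw and Ctsd followed, and each overlapped the next in both groups. Ctsl stood 7th of 10 in the libraries labelled Flcn KO (55.5 ± 18.0), where it overlapped Ctsw, Ctsd and Ctsz. In WT it stood 8th (14.2 ± 4.46), below every Ctsz value and overlapping Lgmn and Ctsh. Lgmn was lowest in the libraries labelled Flcn KO (6.31 ± 1.24), below every Ctsh value, and stood 9th in WT (12.8 ± 4.06). With transcript length in place of coding length Ctss remained highest in both groups and Lgmn lowest in the libraries labelled Flcn KO. Ctsw then stood 2nd in both groups, and Ctsl 8th or 9th in the libraries labelled Flcn KO and 10th in WT.

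**Figure D3:**
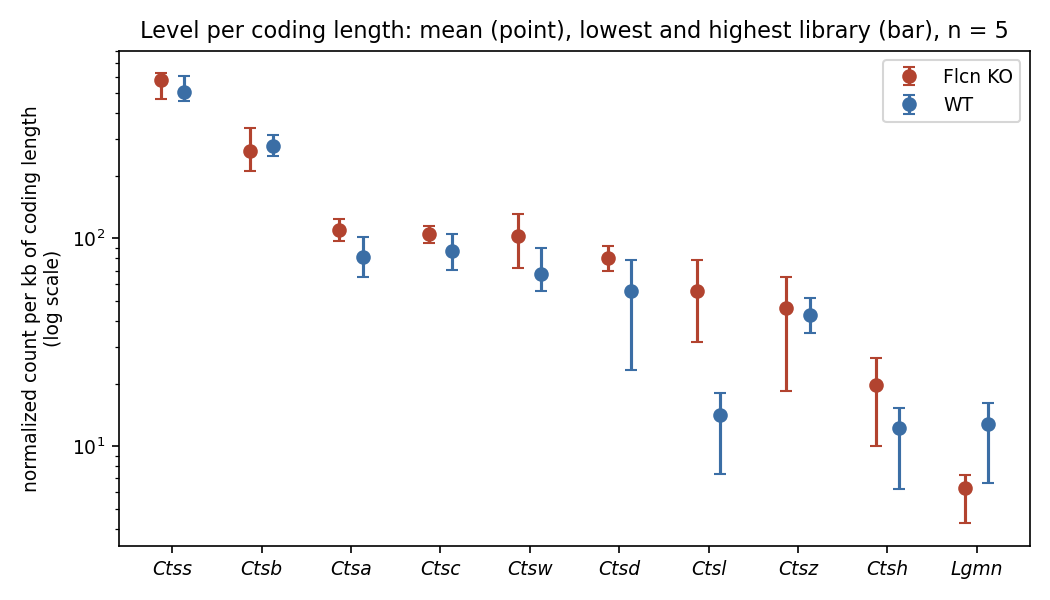
Normalized counts per kilobase of coding length (vertical axis, log scale) of the 10 genes, with libraries labelled Flcn KO left and WT right for each gene; points are means and bars reach from the lowest to the highest of 5 libraries. Ctsl stands at 55.5 in the libraries labelled Flcn KO against 14.2 in WT, while the bars of Ctss and Ctsb overlap between the groups.

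Among libraries labelled Flcn KO, replicate 1 had the highest value for 6 of the 10 genes, and replicates 4 and 5 had the lowest for 4 each. Among WT libraries, replicate 1 was lowest for 6 of the 10. The spread within a group, as the SD over the mean, ran from 7.11% (Ctsc) to 39.9% (Ctsz) in the libraries labelled Flcn KO and from 9.42% (Ctsb) to 36.2% (Ctsd) in WT libraries.

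By root mean square difference of centred log2 values over the 10 libraries, Creg1, Ccr9 and Adi1 were nearest to Ctsl among 10590 genes with a mean of 10 or more normalized counts, at 0.46, 0.47 and 0.48 on the log2 scale. Creg1 had 48.6 ± 15.1 normalized counts in the libraries labelled Flcn KO and 22.0 ± 6.33 in WT (SD, n = 5 each) and did not pass (limma adjusted p = 0.0736). Ccr9, a chemokine receptor, rose to 390 ± 41.4 in the libraries labelled Flcn KO, against 76.1 ± 10.7 in WT (limma adjusted p = 2.72e-05). Adi1 rose to 257 ± 53.1 in the libraries labelled Flcn KO, against 109 ± 25.8 in WT (limma adjusted p = 0.0173). The difference measured here includes the gap between the groups. Genes near to Ctsl are therefore picked for a gap in its direction, and their higher values are not a separate result.

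Of 6 other peptidases of the lysosome 2 rose and none fell, all 6 had a positive log2 fold change, and the median was 0.70. Dpp7, a dipeptidyl peptidase, had 35.2, 33.3, 25.4, 25.8 and 22.0 normalized counts in the libraries labelled Flcn KO, against 11.1, 4.98, 11.5, 12.5 and 13.6 in WT libraries. The groups did not overlap (log2 fold change 1.36, SE 0.25, limma adjusted p = 0.0261), and Dpp7 lost its call without any 1 of Flcn KO replicates 1 to 4 or WT replicate 3 (adjusted p up to 0.0694). Tpp1, a tripeptidyl peptidase, rose to 359 ± 23.8, against 167 ± 38.7 in WT (SD, n = 5 each; limma adjusted p = 0.0115). The 3 other cathepsins of the table had negative log2 fold changes and none passed: -0.18 for Ctso, -0.33 for Ctse and -0.77 for Ctsk.

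Of 5 inhibitors of cathepsins none passed (median log2 fold change -0.18). Cstb, cystatin B, named after its values were seen, had 44.9 ± 11.3 normalized counts in the libraries labelled Flcn KO and 17.7 ± 8.37 in WT (SD, n = 5 each; limma adjusted p = 0.0896). It passed in the authors' deposited table (log2 fold change 1.30, adjusted p = 0.00255) and in edgeR on the recovered reads (adjusted p = 0.0102). Cystatin C (Cst3), cystatin F (Cst7) and Ctla2a, an inhibitor of cathepsin L known from mouse, had log2 fold changes of -0.18, 0.04 and -0.81 with adjusted p of 0.697 and above.

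Of 15 genes that tag hydrolases with mannose 6-phosphate or sort them 1 rose and none fell, with a median of 0.08. That gene was Gga2, a sorting adaptor, with 26.6, 40.0, 40.9, 39.6 and 37.7 normalized counts in the libraries labelled Flcn KO, against 1.24, 7.83, 6.37, 11.3 and 8.40 in WT libraries. The groups did not overlap (limma adjusted p = 0.0175). Among 35 other hydrolases and cofactors 4 rose and none fell, with a median of 0.30, and Gaa, Npc2 and Galc were among those that rose. The number called higher was 8 in limma with trend and robust settings and in edgeR, DESeq2 and limma-voom on the recovered reads. It was also 8 in the authors' deposited table, 9 in edgeR without WT replicate 1, and 0 with the replicate block in limma. The number called higher over all tested genes also changed, from 139 of 14723 in the main test. It was 325 of 14723 with trend and robust settings, 317 of 10493 in edgeR and 305 of 10493 in limma-voom. DESeq2 called 379 of 14738 higher, and 366 of 14738 were called higher in the authors' comparison. In edgeR without WT replicate 1 it was 379 of 10746, and with the replicate block in limma 35 of 14723. Gaa, the acid alpha-glucosidase that breaks down glycogen, rose to 62.1 ± 12.1 in the libraries labelled Flcn KO, against 19.5 ± 6.03 in WT (SD, n = 5 each; limma adjusted p = 0.00657). Galc, a galactosylceramidase, rose by 1.29 on the log2 scale (adjusted p = 0.0299) and lost its call in 8 of 10 fits with 1 library left out, all but those without Flcn KO replicate 1 or WT replicate 1 (adjusted p up to 0.0785). The MiT/TFE factors themselves did not pass in any of 3 members, with a median of -0.21.

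Of 10 genes of class II antigen processing 1 rose, H2-DMb2, with 10.5 ± 5.53 normalized counts in the libraries labelled Flcn KO and 2.78 ± 0.943 in WT (SD, n = 5 each; limma adjusted p = 0.0392), and the median log2 fold change was 0.55. H2-DMb2 shares sequence with its near copy H2-DMb1, so its value is uncertain, and it lost its call in 8 of 10 fits with 1 library left out, all but those without Flcn KO replicate 2 or 3 (adjusted p up to 0.0955). Summed normalized counts of the class II genes were 531 to 1027 in the libraries labelled Flcn KO and 446 to 639 in WT libraries, and B cells, which express them, had marker sums of 1483 to 2905 and 1299.7 to 1504 in the same groups. Both highest sums were in Flcn KO replicate 3. The part of B cells in the class II values was not tested. None of 4 granule protein genes passed. Gzmb, granzyme B, a protease that cathepsin C activates, named after its values were seen, had 36.1 ± 25.5 in the libraries labelled Flcn KO and 101 ± 23.7 in WT (SD, n = 5 each; limma adjusted p = 0.071), and it passed in the authors' deposited table (log2 fold change -1.49, adjusted p = 0.000271) and in limma without Flcn KO replicate 3 (adjusted p = 0.0143).

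Other cells of the spleen, B cells and myeloid cells among them, also make these peptidases. Of 13 B cell markers none passed, 12 had a positive log2 fold change, and their normalized counts summed to 1483 to 2905 in the libraries labelled Flcn KO and 1299.7 to 1504 in WT libraries. Of 19 myeloid and dendritic cell markers none passed, and 17 had a positive log2 fold change. Their sums were 283 to 604 in the libraries labelled Flcn KO and 206 to 461 in WT libraries. Flcn KO replicate 3 held the highest sum of both lists, and Flcn KO replicate 1, next in that group, had 1792 and 412. No marker of either list was at 0 in a library labelled Flcn KO, while Adgre1, S100a8 and Clec9a were at 0 in WT replicate 1, S100a8 in WT replicate 3, and Spi1 and Blk in WT replicate 4. Over the whole table WT replicate 1 had 807 genes at 0, against 117 to 389 in the other libraries. Most of the B cell sum was Ighm, with means of 1518 normalized counts in the libraries labelled Flcn KO and 1142 in WT libraries. As a mean of log2(normalized count + 1), in which each marker weighs the same, the B cell markers stood at 4.48 to 5.55 in the libraries labelled Flcn KO and 4.12 to 4.65 in WT libraries, and all but Flcn KO replicate 2 lay above every WT library. The myeloid markers stood at 3.58 to 4.46 on that scale in the libraries labelled Flcn KO and 2.47 to 3.95 in WT libraries. The part of such cells in the values of Ctsl and the other members was not tested. Of 9 genes of Treg identity 1 rose (Il2ra) and 1 fell (Ikzf2), each losing its call in 8 of 10 limma fits with 1 library left out. For both genes the groups did not overlap, and both passed in the authors' deposited table (adjusted p = 7.58e-13 and 1.61e-12). Of 4 plasma cell markers 1 fell, Prdm1, which lost its call in 9 of the 10 limma fits and passed in the authors' deposited table (adjusted p = 1.1e-05). The other plasma cell markers did not pass, with log2 fold changes of 0.20 for Jchain, 0.15 for Xbp1 and -0.05 for Irf4. None of 4 erythroid and platelet or 6 CD8 T and NK cell markers passed.

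**Figure D4:**
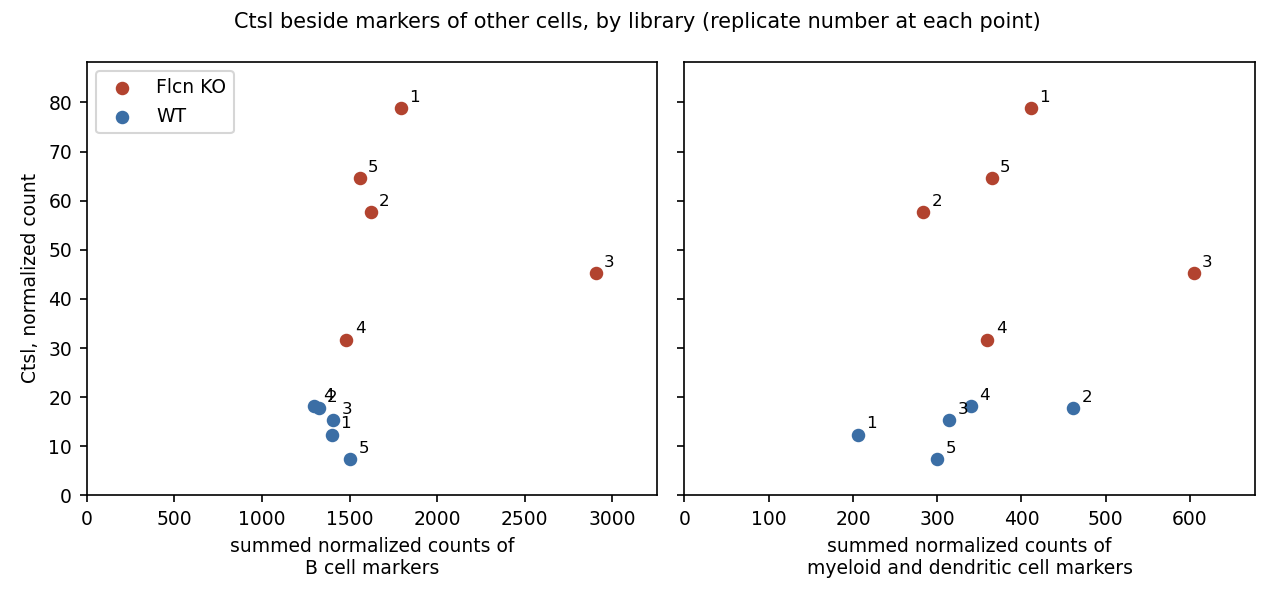
Ctsl in normalized counts (vertical axis) against the summed normalized counts of 13 B cell markers (left) and 19 myeloid and dendritic cell markers (right) in each library, with the replicate number at each point. Ctsl is at least 31.7 in the 5 libraries labelled Flcn KO and at most 18.1 in the WT libraries. The highest marker sums, 2905 and 604, are both in Flcn KO replicate 3, against at most 1504 and 461 in WT libraries. Next in that group is Flcn KO replicate 1, with 1792 and 412.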

How the data were processed

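DESeq2 1.24.0, RSEM 1.3.1, STAR 2.5.3a and Trimmomatic 0.36 are named, without their roles, in the submitters' processing notes, as is build mm9. RNA was isolated with a column kit and amplified by a low-input NuGEN method, per the labels' protocols. The deposited table gave 1 column of signal per library, read as normalized counts, since every value was a whole multiple of what 1 read was worth within 0.01 reads. The deposited table also held the authors' log2 fold change with its SE, a Wald statistic (score) and p-values. Which annotation the authors counted on was not stated. Promoter sequences are RefSeq's (GRCm38.p6), and lengths and overlaps come from GENCODE vM21; no mm9 coordinates were used.

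The main test was limma 3.58.1 on log2(normalized count + 1), with genotype alone, over genes with 1 or more in at least 5 libraries. Alternatives used edgeR 4.0.16 and DESeq2 1.42.0 on the recovered read counts, other pseudocounts, filters and scalings, and fits with 1 library left out. The plain limma, edgeR, DESeq2 and limma-voom fits were tested on simulated counts. The 10 members and the 14 lists beside them were chosen with earlier results of these data known. Genes named by rule were the 10 members, the members of each list past the threshold (at most 4, by smallest p), and the 3 genes nearest to Ctsl over the libraries. Of these, 1 gene is not reported here. Other list genes, among them the cathepsins and inhibitors that did not pass and the markers at 0, were named after their values were seen. Nothing says that the libraries came from separate mice beyond the design text's 5 biological replicates per group, so p-values measure the spread between these libraries. The reads limit the precision, and a count of 0 allows up to 3 reads.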

Additional observations from a re-analysis of the deposited data

How the results depend on the processing

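Over 23 alternatives, 3 of them chosen after seeing the data (the authors' deposited comparison, and edgeR without WT replicate 1 or with the block), Ctsl kept its direction in all, with a log2 fold change of 1.64 to 2.08, and its call in all but the replicate block. Deviations of same-numbered libraries from their group means correlated by 0.005 to 0.042, and the same number was the best partner for Flcn KO replicates 2 and 3. These values do not settle whether the replicate numbers shared by the groups pair the libraries. With the replicate block in limma 0 of the 10 members were called higher (Ctsl adjusted p = 0.0913) and 59 genes in all, while edgeR with the block called 539 genes, Ctsl among them. The number of members called higher was 2 in DESeq2 and in the authors' deposited comparison, through Ctsw. The number called lower was 1 in limma and in edgeR without WT replicate 1, through Lgmn, and 0 to 1 with any library left out. Over all genes the 252 calls became 598 with trend and robust settings, 592 in edgeR, 682 in edgeR without WT replicate 1, 727 in DESeq2, 589 in limma-voom, 703 in the authors' deposited comparison and 125 to 222 with 1 library left out in limma. The cause was not tested. Ctsz, never called, changed sign in 6 fits with 1 library left out (-0.14 to 0.30 over the 10). Ctsa, Ctsb, Ctsc, Ctsd, Ctsh and Ctss kept direction and stayed uncalled in all 23. Depth limits Lgmn, Ctsh and Ctsl most, with 5 to 7 reads in their lowest libraries.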
